A study of Mus musculus with 4 samples.

Results

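The genes described here encode the inhibitors of cyclin-dependent kinases (CDKs), the p53 pathway's core and the retinoblastoma protein RB. They were chosen by name from a list of 9 genes, and each was read from the probe set that the platform's annotation pairs with that gene symbol alone, the brightest by mean over 4 arrays where there were several. Of the 9 genes, 7 had such a probe set (Cdkn1b, Cdkn2a, Cdkn2b, Cdkn2c, Cdkn2d, Mdm2 and Rb1), out of 19938 genes measured in the same way. Cdkn1a, whose probe set is annotated with a second gene as well, and Trp53 are not analysed here. The samples were the mouse cell lines TS2 and TS1, each labelled as derived from CD4+ T lymphocytes and given no treatment. Both grew in Iscove-Dulbecco's medium with murine interleukin-9, a T cell growth factor, and each gave biological duplicates A and B, with 1 Affymetrix array per duplicate. The labels name no genotype, strain or passage. Each line is a single line, so a difference between TS2 and TS1 cannot be told apart from what sets any other pair of T cell lines apart.

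A cell commits to division in the G1 phase, when kinases built from a D-type cyclin and Cdk4 or Cdk6, and then from cyclin E and Cdk2, phosphorylate RB. Unphosphorylated RB holds E2F transcription factors and keeps the genes of DNA replication silent. Proteins of the INK4 family (the products of Cdkn2a to Cdkn2d) bind Cdk4 and Cdk6, while those of the Cip/Kip family (Cdkn1a and Cdkn1b among them) bind complexes of cyclins and CDKs. The p53 protein switches on Cdkn1a after DNA damage, and Mdm2 is the ubiquitin ligase that degrades p53. In T cells this machinery couples cytokine and antigen signals to division, and lines that grow without limit often carry lesions in it, foremost at the locus of Cdkn2a and Cdkn2b.

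Levels are RMA intensities, corrected for background and normalized, and are given as log2. Medians over all 35556 probe sets lay between 88.6 and 92.5 on the linear scale. Each difference is the TS2 mean less the TS1 mean in log2 units, given with its standard error (SE) and resting on n = 2 arrays per line. It comes from a linear model fitted in limma to all 19938 genes, and called means an adjusted p (Benjamini-Hochberg) below 0.05. By that rule 13.5% of all genes were called, 5.05% as higher in TS2 and 8.45% as higher in TS1. With 2 arrays a line, exact permutation (two-sided) can reach no p below 0.333, so single genes rest on the variance that limma shares between genes. Precision is limited throughout by these 4 arrays. The 1194 probe sets for olfactory and vomeronasal receptors gave a measure of the level without expression, with a 95th percentile of 5.84 and 5.75 on TS2 A and B, against 5.61 and 5.70 on TS1 A and B. A gene below it on both arrays of a line is described as dim there.

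The T cell label held only in part. Of 11 measured T cell markers, 4 were higher in TS2 (Cd3e, Cd247, Zap70 and Ptprc), 1 was higher in TS1 (Lat), and Cd4 and Cd3d were dim in both lines. Ptprc and Cd28 were dim in TS1 but not in TS2, although Cd28 lay below the level without expression on TS2 B. The summed linear intensity of the 11 markers was 13313 and 14741 in TS2, against 2692 and 1467 in TS1. The brightest genes weigh most in this sum, Cd3e in TS2 and Cd3g on TS1 A, so it does not describe the whole list. Cd3g had 10.39 and 11.98 in TS2, against 10.52 and 6.07 in TS1, so that TS1 B stood apart from TS1 A. Of 10 myeloid markers 8 were dim in both lines, and 1, Cd68, was higher in TS1. The summed intensity of the myeloid list was 481 and 465 in TS2, against 588 and 583 in TS1. Among 8 mast cell markers, Fcer1a was bright in both lines, Kit was higher in TS1, and Mcpt4 and Cma1 had 10.10 and 8.61 on TS2 B, but 6.60 and 5.35 on TS2 A. The mast cell list summed to 9013 and 10602 in TS2, against 7581 and 8601 in TS1. Fcer1a alone gave most of this sum on every array, so the sum does not describe the list as a whole. Tpsb2 and Tpsab1 were dim in both lines, Kit was dim in TS2, and Mcpt4 and Cma1 were dim in TS1. Cpa3 and Hdc were dim in neither line. Of 7 B cell markers Ebf1 was higher in TS1 (sums 273 and 278 in TS2, against 289 and 303 in TS1), and of 7 stromal markers Pdgfra was (440 and 445 in TS2, against 468 and 584 in TS1). Ebf1 was dim in TS2 and lay just above the level without expression on TS1 A and B (5.64 and 5.85, against 5.61 and 5.70). Leaving out single arrays ended the calls of Cd68 (TS2 A, TS2 B or TS1 A, adjusted p 0.0703 to 0.136), Pdgfra (TS2 A, TS2 B or TS1 B, 0.0572 to 0.141) and Ebf1 (TS1 B, 0.0561). The part of these marker levels in the results below was not tested.

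Every measured member was above the level without expression in both lines, and 6 of the 7 were not called. Only Cdkn2c, the INK4 inhibitor known as p18, was called, 1 of 7 members, where 13.5% of all genes were called. All 7 differences were positive, although those of Mdm2 and Cdkn2d were close to 0, and the median was 0.27, against 0.01 over all genes. In 5 members both TS2 arrays stood above both TS1 arrays, and in 0 members below them. Of all genes, 58.4% stood apart without overlap, 29.1% with TS2 higher and 29.3% with TS1 higher. Rb1 had the widest difference, at 1.06, but did not pass, and its TS1 duplicates lay far apart. Since RNA came from whole cultures, fewer cells with a transcript and less transcript per cell cannot be told apart.

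**Figure D1:**
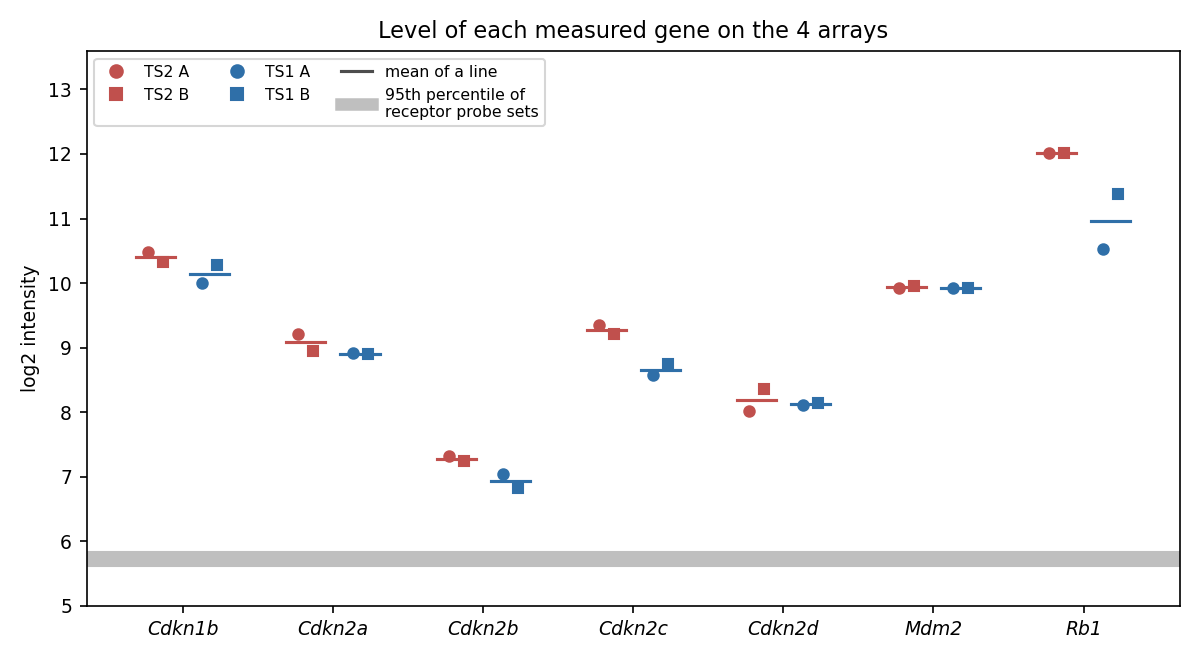
Log2 intensity (vertical axis) of the 7 measured genes on each array, TS2 left of TS1 for each gene, with circles for duplicate A, squares for duplicate B and bars for the mean of a line. The grey band spans the 95th percentile of receptor probe sets over the 4 arrays (5.61 to 5.84). All genes lie above the band, Cdkn2c and Rb1 are higher on both TS2 arrays than on either TS1 array, and Mdm2 is level.

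Cdkn2c encodes p18, which binds Cdk4 and Cdk6 and in mice restrains the growth of lymphocytes. Its log2 intensity was 9.35 on TS2 A and 9.20 on TS2 B, against 8.57 on TS1 A and 8.74 on TS1 B. Both TS2 arrays lay above both TS1 arrays, and the duplicates were 0.14 apart in TS2 and 0.17 apart in TS1. Cdkn2c was higher in TS2 by 0.62 (SE 0.11, 95% interval 0.33 to 0.90, limma adjusted p = 0.0275), a 1.53-fold difference. The direction held with each array left out, at 0.53 to 0.70, but the call did not: the adjusted p was 0.150 without TS2 A, 0.0918 without TS2 B, 0.0737 without TS1 A and 0.0514 without TS1 B. In a fit of all 35556 probe sets, of which 5.2% were called, its adjusted p was 0.0643.

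Because Cdkn2c carried the only call among the members, the stretch before its upstream transcript start is shown, together with that of Rbl1, the RB relative with the firmest call below, and those of Cdkn2a, whose single probe set reads transcripts from 2 starts. Each is the 150 bases before the start, read 5′ to 3′ on the gene's strand (minus for each), from RefSeq's promoter table of mouse build GRCm38.p6. In Cdkn2c the capitals mark GC boxes, and in the other genes they mark the E2F motif, while the second Cdkn2a stretch held neither. The upstream Cdkn2a stretch also held 2 GC boxes, which are left in lower case.
Cdkn2c (chr4:109666757-109666906): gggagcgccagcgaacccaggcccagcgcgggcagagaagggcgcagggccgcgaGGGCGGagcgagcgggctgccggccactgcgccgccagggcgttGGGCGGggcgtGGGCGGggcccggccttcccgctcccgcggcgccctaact
Rbl1 (chr2:157204535-157204684): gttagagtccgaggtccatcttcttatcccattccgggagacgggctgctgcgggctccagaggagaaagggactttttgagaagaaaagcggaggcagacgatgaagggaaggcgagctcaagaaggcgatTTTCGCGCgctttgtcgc
Cdkn2a, upstream start (chr4:89294620-89294769): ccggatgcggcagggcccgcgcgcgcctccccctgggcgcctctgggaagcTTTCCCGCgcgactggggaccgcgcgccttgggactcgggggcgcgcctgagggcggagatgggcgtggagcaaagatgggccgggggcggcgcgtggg
Cdkn2a, downstream start (chr4:89282193-89282342): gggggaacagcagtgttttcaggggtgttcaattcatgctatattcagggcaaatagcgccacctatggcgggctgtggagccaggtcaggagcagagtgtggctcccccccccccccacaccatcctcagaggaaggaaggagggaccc
The 250 bases before each start were searched on both strands for GC boxes (GGGCGG) and for 4 spellings of the E2F motif (TTTCCCGC, TTTCGCGC, TTTGCCGC and TTTGGCGC), and no match in the genes shown overlapped another. Over 32851 promoter stretches of that length, 32.7% held a GC box and 1.86% an E2F motif. Of the 7 members, 6 had a stretch in the table. These 6 genes had 8 stretches, and 5 of the 8, each of a different gene, held a GC box. There were 3 boxes before the upstream start of Cdkn2c and 3 before the start of Cdkn2d. The second Cdkn2c stretch, not shown, held neither motif. Among these 6 genes an E2F motif was found in Cdkn2a alone, 99 bases before its upstream start. In Rbl1 the E2F motif began 18 bases before the start. These matches describe the letters only.

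The other INK4 genes were measured in both lines and did not pass. Cdkn2b encodes p15, an inhibitor of Cdk4 and Cdk6 that transforming growth factor beta is known to induce. Its values were 7.32 and 7.24 in TS2, against 7.04 and 6.83 in TS1, so the lines did not overlap. The difference of 0.34 (SE 0.11, 95% interval 0.06 to 0.63) had an unadjusted p of 0.0261 in limma and did not pass after adjustment (adjusted p = 0.114).

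Cdkn2a encodes 2 unrelated proteins, the CDK inhibitor p16Ink4a and p19Arf, which blocks Mdm2. The upstream start, which gives the Arf transcript, lies 12427 bases before the downstream one, which gives Ink4a. The probe set is annotated with RefSeq transcripts of both, so the value cannot be divided between them. Cdkn2a had 9.21 and 8.95 in TS2, against 8.91 and 8.89 in TS1. TS2 A stood highest and the other 3 arrays lay close together, and the difference of 0.18 (SE 0.12, 95% interval -0.12 to 0.48, limma adjusted p = 0.395) did not pass. Mtap, an enzyme of the methionine salvage pathway whose gene lies next to Cdkn2a and is often lost with it, was level as well, at 10.15 and 10.16 in TS2, against 10.23 and 10.09 in TS1 (difference -0.01, limma adjusted p = 0.978). Transcripts of Cdkn2a, Cdkn2b and Mtap were thus measured in both lines, although an array reads no mutation.

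Cdkn2d, the gene of p19Ink4d, was 8.01 and 8.35 in TS2, against 8.12 and 8.15 in TS1. The TS1 values fell between the TS2 values, and the difference was 0.05 with a 95% interval of -0.30 to 0.40 (limma adjusted p = 0.854). Its sign turned to -0.12 without TS2 B. Among the Cip/Kip genes, Cdkn1b encodes p27, which restrains Cdk2 in resting T cells. Its brighter probe set had 10.48 and 10.33 in TS2, against 9.99 and 10.28 in TS1. TS2 B lay barely above TS1 B, and the difference of 0.27 (SE 0.13, 95% interval -0.07 to 0.61, limma adjusted p = 0.261) did not pass. The second probe set of Cdkn1b was dimmer, at 8.11 and 8.09 in TS2, against 7.62 and 8.42 in TS1. There the TS2 values lay between the TS1 values, with a difference of 0.09 (limma adjusted p over all probe sets = 0.904). Both probe sets had their lowest value on TS1 A.

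**Figure D2:**
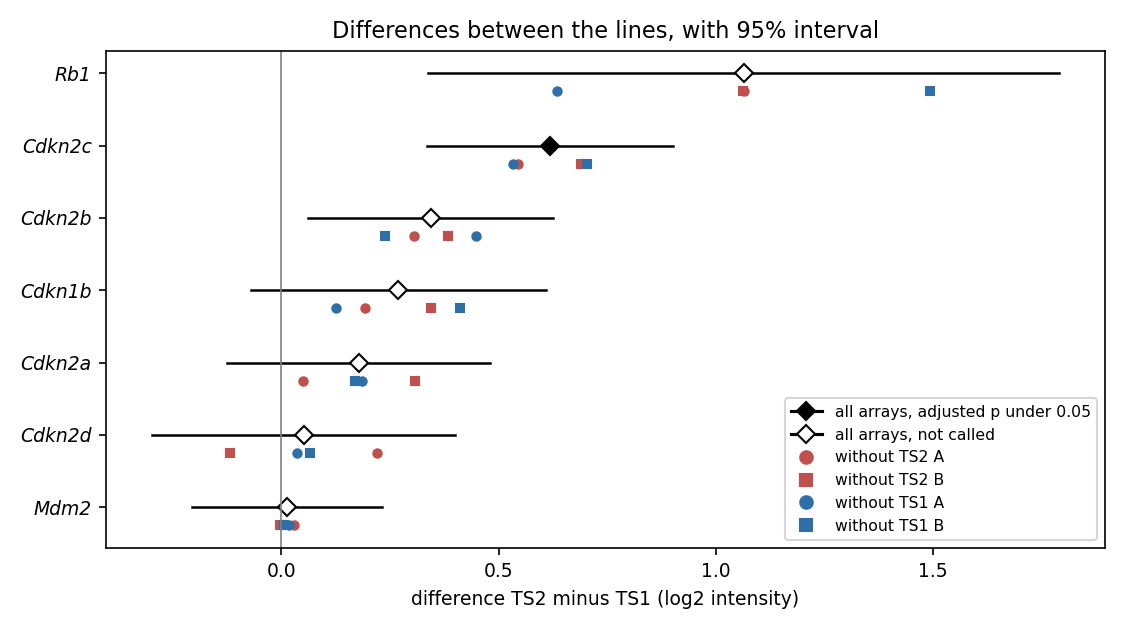
Difference TS2 minus TS1 in log2 intensity (horizontal axis) of each measured gene, with a diamond for the fit of all 4 arrays, a line for its 95% interval, a filled diamond for an adjusted p under 0.05, and coloured points for the difference with 1 array left out. Cdkn2c alone is filled, and the points of Rb1 run from 0.64 without TS1 A to 1.49 without TS1 B.

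Mdm2 was the member with the closest values across the 4 arrays. It had 9.92 and 9.95 in TS2, against 9.93 and 9.92 in TS1. The difference of 0.01 had a 95% interval of -0.21 to 0.23 (limma adjusted p = 0.948). Its sign changed without TS2 B (-0.004). Mdm2 is itself switched on by p53 and keeps p53 low in unstressed cells.

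Rb1, the gene of RB, had 12.02 on both TS2 arrays, against 10.53 on TS1 A and 11.39 on TS1 B. Both TS1 values lay below both TS2 values, and the TS1 duplicates differed by 0.86, more than in 98.5% of all genes. In TS2 the duplicates were closer than in all but 0.251% of genes. The difference of 1.06 (SE 0.28, 95% interval 0.34 to 1.79), 2.09-fold, did not pass (limma adjusted p = 0.0750). It did pass with either TS1 array left out, at 0.64 without TS1 A (adjusted p = 0.0379) and at 1.49 without TS1 B (adjusted p = 0.00745), but not without TS2 A (0.237) or TS2 B (0.228). When a line keeps 1 array, that array is taken to vary like those of the other line, and the close TS2 duplicates then set the spread of Rb1.

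The relatives of RB were higher in TS2. Rbl1 encodes p107 and Rbl2 encodes p130, pocket proteins that bind E2F4 and E2F5 and, in the DREAM complex, repress cell cycle genes in resting cells. Rbl1 had 10.72 and 10.71 in TS2, against 9.96 and 9.80 in TS1, and was higher in TS2 by 0.84 (SE 0.10, limma adjusted p = 0.00927). Rbl2 had 11.14 and 10.68 in TS2, against 9.75 and 9.97 in TS1, and was higher by 1.05 (SE 0.18, limma adjusted p = 0.0256). For both genes every TS2 array stood above every TS1 array. Leaving out TS2 A ended the call of Rbl1 (adjusted p = 0.0615), as did leaving out TS2 B (0.0572). That of Rbl2 was lost without TS2 A (0.0770), TS1 A (0.0814) or TS1 B (0.0644), and with duplicate letters as blocks (0.0634).

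Among all 18 measured genes of the RB family, the E2F factors and the DREAM complex, limma called 3 with TS2 higher and 2 with TS1 higher, and 13 were not called, with a median difference of 0.09. This is 27.8% called, against 13.5% of all genes. E2f8, a repressing E2F, was the other gene higher in TS2, by 0.58 (limma adjusted p = 0.0317). E2f2, an activating E2F of lymphocytes, was higher in TS1, with 8.78 and 8.56 in TS2, against 9.41 and 9.57 in TS1 (difference -0.82, SE 0.12, limma adjusted p = 0.0170). The second gene higher in TS1 was Mybl2, which encodes the cell cycle factor B-Myb and was singled out after its values were seen (difference -0.45, limma adjusted p = 0.0414). E2f1 was 9.71 and 9.70 in TS2, against 9.44 and 9.75 in TS1, and did not pass (difference 0.11, limma adjusted p = 0.658). E2f8 (adjusted p 0.0731 to 0.149) and Mybl2 (0.0906 to 0.219) lost their calls whichever array was left out, Mybl2 also with arrays quantile normalized again (0.0720), and E2f2 without TS2 B (0.0846) or TS1 B (0.0637). With duplicate letters as blocks, the list had 1 gene higher in TS2 and 0 higher in TS1.

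**Figure D3:**
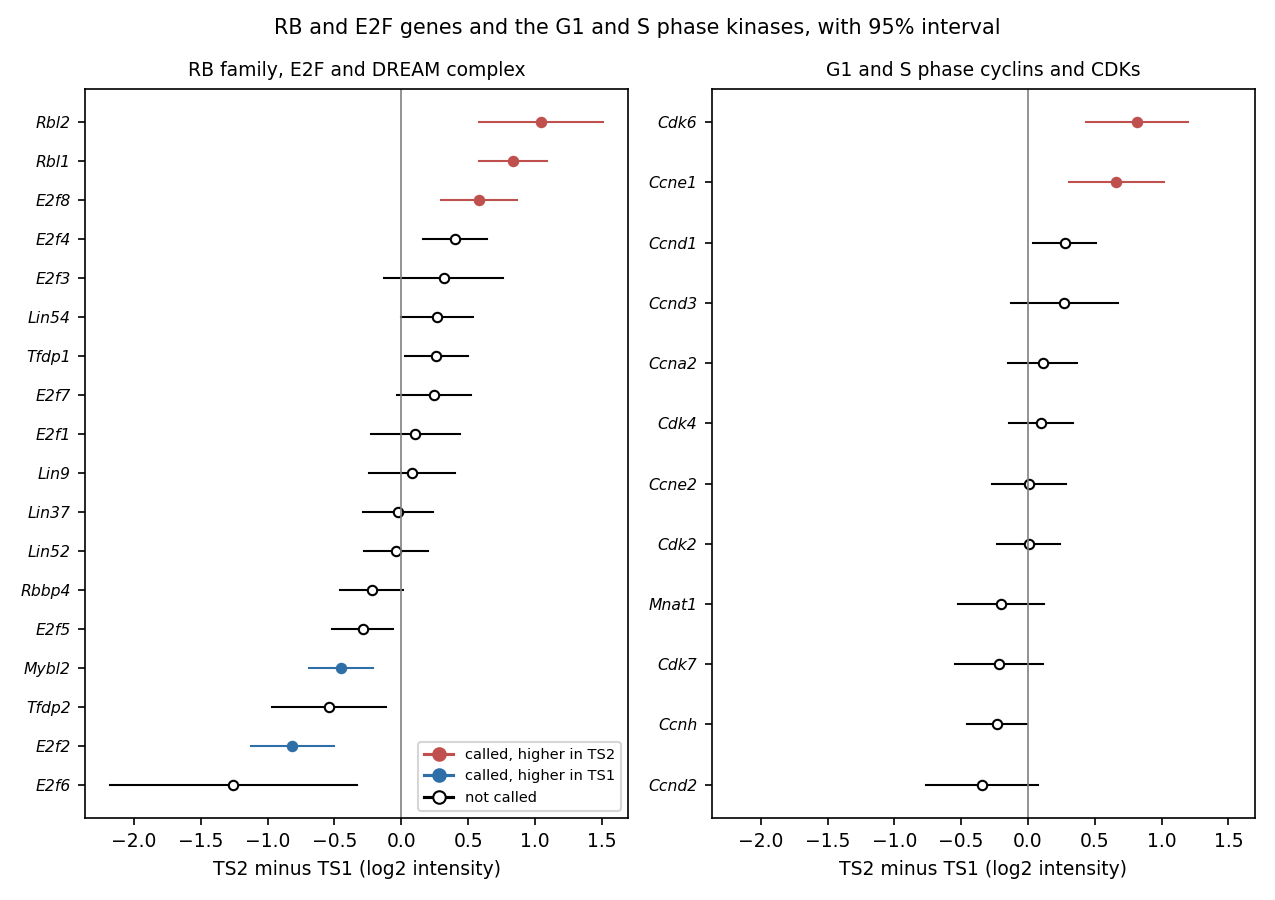
Difference TS2 minus TS1 in log2 intensity (horizontal axis) with 95% intervals for the RB family, E2F and DREAM genes (left) and the G1 and S phase cyclins and CDKs (right). Red marks genes called as higher in TS2, blue genes called as higher in TS1, and open points genes not called. Rbl2 and Rbl1 stand at the top of the left panel, and Cdk6 and Ccne1 at the top of the right.

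Among the kinases and cyclins that the inhibitors bind, Cdk6 and Ccne1 were higher in TS2. Of 12 G1 and S phase cyclins, CDKs and subunits of the CDK-activating kinase, limma called 2 with TS2 higher and 0 with TS1 higher, and 10 were not called, which is 16.7% called against 13.5% of all genes. At an unadjusted p below 0.05 stood 4 of the 12, 3 of them higher in TS2 and 1 in TS1, or 33.3% against 29.4% of all genes. The model without moderated variances calls 0 of all 19938 genes and so bears on no list. Cdk6, a partner of D-type cyclins and target of p18, had 10.63 and 10.43 in TS2, against 9.89 and 9.55 in TS1 (difference 0.81, SE 0.15, limma adjusted p = 0.0292). Ccne1, which encodes cyclin E1, had 10.50 and 10.68 in TS2, against 10.08 and 9.78 in TS1 (difference 0.66, SE 0.14, limma adjusted p = 0.0414). For both, the TS2 arrays lay above the TS1 arrays. With duplicate letters as blocks, Cdk6 kept its call (limma adjusted p = 0.0294) and Ccne1 lost it (0.0931). The call of Cdk6 ended on leaving out TS2 A (adjusted p = 0.143), TS2 B (0.0856) or TS1 B (0.0732), and that of Ccne1 on leaving out TS2 A (0.117), TS2 B (0.185) or TS1 B (0.104).

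Cdk4 differed by 0.10 (95% interval -0.14 to 0.34) and Cdk2 by 0.004 (95% interval -0.24 to 0.24). Of the D-type cyclins, Ccnd2 was bright in both lines, at 11.70 and 11.55 in TS2, against 11.77 and 12.18 in TS1 (difference -0.35, limma adjusted p = 0.242). Ccnd3 differed by 0.27 (limma adjusted p = 0.329). Ccnd1, which most lymphocytes do not use, stood close to the level without expression, at 6.09 and 6.05 in TS2, against 5.74 and 5.84 in TS1 (difference 0.27, limma adjusted p = 0.126).

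The genes that E2F factors switch on for DNA replication did not differ by more than 0.52 in either direction. Of 26 measured E2F target genes, limma called 0, where 13.5% of all genes were called. The lowest limma adjusted p among them was 0.0510, close to the threshold. At an unadjusted p below 0.05 there were 4 with TS2 higher and 7 with TS1 higher, or 42.3% against 29.4% of all genes, and the lines did not overlap in 21 of the 26, or 80.8% against 58.4%. The share called was thus below that of all genes, while the shares by the other 2 measures were above it. The model without moderated variances called 0 of these and 0 of all genes. Their median difference was -0.12. With the dimmest 50% of probe sets left out, 1 was called as higher in TS2 and 3 as higher in TS1, and with an intensity trend in the prior variance 3 and 2. Over the 12 alternatives the counts ranged from 0 to 3 in each direction. They left 0 in 5 alternatives for TS2 and in 4 for TS1, so the count of 0 depends on the processing.

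**Figure D4:**
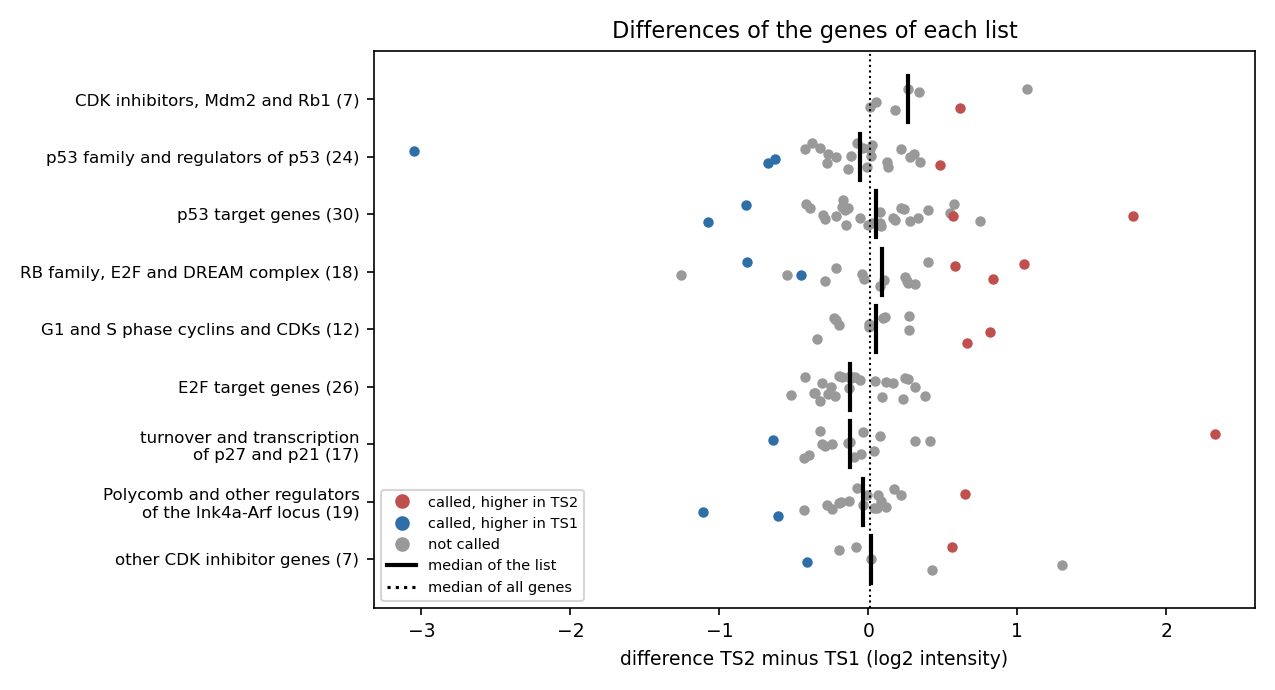
Difference TS2 minus TS1 in log2 intensity (horizontal axis) of every measured gene of each list, with the number of genes in brackets. Points are genes (red called as higher in TS2, blue called as higher in TS1, grey not called), black bars the median of a list, and the dotted line the median of all genes (0.01). The E2F target genes lie within 0.52 of 0, and Hipk2 and Myc lie farthest out, at -3.05 and 2.33.

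Among the proteins that act on p53, the kinase Hipk2 had by far the widest difference. Of 24 measured members of the p53 family and regulators of p53, limma called 1 with TS2 higher and 3 with TS1 higher, and 20 were not called, which is 16.7% called against 13.5% of all genes. The lines did not overlap in 18 of the 24, or 75.0%, against 58.4% of all genes. Hipk2, a kinase that phosphorylates p53 after severe DNA damage, had 7.48 and 7.55 in TS2, against 10.47 and 10.66 in TS1. The arrays of each line lay close together and the lines far apart (difference -3.05, SE 0.11, limma adjusted p = 0.000401), 8.28-fold lower in TS2. This call held with each array left out (adjusted p 0.00173 to 0.00372). Huwe1, a ubiquitin ligase with p53 among its substrates, was also lower in TS2 (difference -0.67, limma adjusted p = 0.0131), as was Ppp1r13b, a p53-binding protein of the ASPP family (difference -0.63, limma adjusted p = 0.0435). Crebbp, an acetyltransferase and co-activator of p53, was higher in TS2 by 0.48 (limma adjusted p = 0.0284). Huwe1 lost its call with TS2 A left out (adjusted p = 0.0869) or TS2 B (0.0781), while Ppp1r13b (0.0654 to 0.167) and Crebbp (0.0582 to 0.153) lost theirs whichever array was left out. Ppp1r13b was also not called with arrays centred on their medians (0.0502) or quantile normalized again (0.0559). With duplicate letters as blocks, Huwe1 kept its call (limma adjusted p = 0.0387), while Ppp1r13b (0.0915) and Crebbp (0.0699) lost theirs.

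Mdm4, the partner of Mdm2 that masks p53, had 9.80 and 9.86 in TS2, against 9.50 and 9.45 in TS1. Its TS2 arrays stood above its TS1 arrays, but the difference of 0.35 (SE 0.09) did not pass (limma adjusted p = 0.0651), though it did with the dimmest 50% of probe sets left out. Of the p53 relatives, Trp73 was dim in both lines, and Trp63 lay just above the level without expression (6.15 ± 0.05 in TS2, against 6.03 ± 0.04 in TS1, SD).

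Genes that p53 is known to switch on went both ways. Of 30 measured p53 target genes, limma called 2 with TS2 higher and 2 with TS1 higher, and 26 were not called, 13.3% called against 13.5% of all genes, with a median difference of 0.05. Among those not called, 4 were dim in both lines (Fas, Perp, Eda2r and Plk2). Pmaip1, which encodes the death-promoting BH3-only protein Noxa, had 7.83 and 7.67 in TS2, against 5.72 and 6.22 in TS1. On TS1 A this gene lay close to the level without expression (5.61 there), and its TS1 duplicates differed by 0.50. It was higher in TS2 by 1.78 (SE 0.19, limma adjusted p = 0.00664), or 3.43-fold, and kept its call with each array left out. Rrm2b, a ribonucleotide reductase subunit for DNA repair, was higher in TS2 by 0.57 (limma adjusted p = 0.0269). With duplicate letters as blocks its call was lost (limma adjusted p = 0.0584).

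Tnfrsf10b, the death receptor of the ligand TRAIL, was lower in TS2, with 8.95 and 8.81 in TS2, against 10.15 and 9.76 in TS1 (difference -1.07, SE 0.16, limma adjusted p = 0.0165). Sesn2, a stress protein that restrains the growth kinase mTORC1, was lower in TS2 too, at 8.01 ± 0.006 in TS2, against 8.83 ± 0.15 in TS1 (mean and SD, difference -0.82, limma adjusted p = 0.0125). Ccng1, cyclin G1, was bright in both lines and did not pass (difference -0.13, limma adjusted p = 0.611). Tnfrsf10b and Sesn2 lost their calls with TS2 A left out (adjusted p = 0.0673 and 0.0746) or TS2 B left out (0.0867 and 0.0704), and Rrm2b without TS2 A (0.143), TS2 B (0.128) or TS1 B (0.0774).

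**Figure D5:**
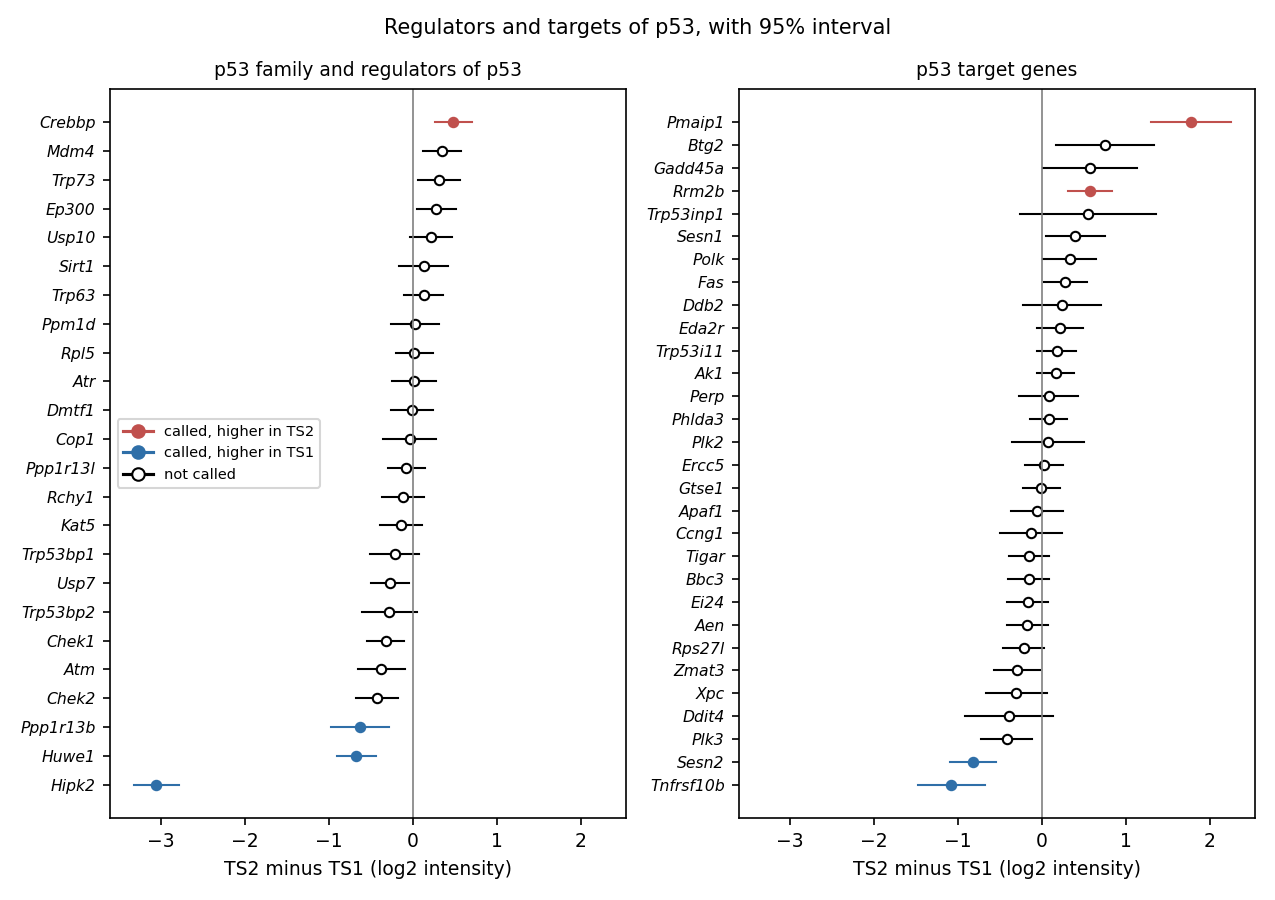
Difference TS2 minus TS1 in log2 intensity (horizontal axis) with 95% intervals for regulators of p53 (left) and p53 target genes (right), coloured by call (red higher in TS2, blue higher in TS1, open not called). Hipk2 stands apart at -3.05 on the left, and Pmaip1 at 1.78 on the right, while most genes lie within 0.5 of 0.

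Among genes that set the level of p27 and p21, Myc stood far higher in TS2. Of 17 measured genes for the turnover and transcription of p27 and p21, 1 was higher in TS2 and 1 was higher in TS1, or 11.8% called against 13.5% of all genes. Myc, a growth factor-induced transcription factor that represses several CDK inhibitor genes, had 12.63 and 12.56 in TS2, against 10.09 and 10.45 in TS1 (difference 2.33, SE 0.14, limma adjusted p = 0.00157). Zbtb17, which encodes Miz1, the DNA-binding partner through which MYC represses Cdkn2b and Cdkn1a, had 8.18 on both TS2 arrays, against 8.84 and 8.81 in TS1. It was lower in TS2 (difference -0.64, SE 0.09, limma adjusted p = 0.0129), but not past the threshold with TS2 A (0.0850) or TS2 B (0.0832) left out. Skp2, the ubiquitin ligase subunit that marks p27 for destruction, differed by -0.14 (95% interval -0.50 to 0.22).

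Polycomb proteins keep the Cdkn2a locus silent in young cells. The list of 19 measured genes held Polycomb genes, other regulators of the locus and its neighbour Mtap. Of these, 1 was higher in TS2 and 2 were higher in TS1, or 15.8% called against 13.5% of all genes. Phc1, a subunit of Polycomb repressive complex 1, had 7.45 and 7.72 in TS2, against 8.64 and 8.76 in TS1 (difference -1.11, SE 0.13, limma adjusted p = 0.00860), and kept its call with each array left out. Rnf2, the catalytic ubiquitin ligase of that complex, was lower in TS2 as well (difference -0.61, limma adjusted p = 0.0300), and Cbx2, a chromobox subunit, was higher (difference 0.65, limma adjusted p = 0.0475). Both lost their calls with TS2 A left out (adjusted p = 0.157 for Rnf2 and 0.191 for Cbx2), TS2 B (0.121 and 0.176) or TS1 B (0.0797 and 0.0829), and Cbx2 also with each array centred on its median (0.0570). Blocks by duplicate letter ended both calls too (limma adjusted p = 0.0518 for Rnf2 and 0.0709 for Cbx2). Bmi1, a partner of Rnf2 and the best known repressor of Cdkn2a, differed by -0.04 (95% interval -0.35 to 0.28). Ezh2, the methyltransferase of Polycomb repressive complex 2, differed by 0.07 (95% interval -0.16 to 0.29).

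Of 7 other genes named after CDKs or their inhibitors, Cdkn2aip, Cdkn2aipnl and Cdk5rap1 among them, 1 was higher in TS2 and 1 was higher in TS1. This is 28.6% called, against 13.5% of all genes. Cdkn3, a phosphatase that removes the activating phosphate of CDKs, had 9.69 and 9.80 in TS2, against 9.16 and 9.21 in TS1 (difference 0.56, SE 0.09, limma adjusted p = 0.0228). Cables2, a CDK-binding protein, was lower in TS2 (difference -0.41, limma adjusted p = 0.0493). Neither call outlasted the loss of any single array (adjusted p 0.0651 to 0.133 for Cdkn3 and 0.0962 to 0.245 for Cables2), and that of Cables2 ended with an intensity trend (0.0680), centred arrays (0.0677) and repeated quantile normalization (0.0790). Both calls were also lost with duplicate letters as blocks (limma adjusted p = 0.0534 for Cdkn3 and 0.107 for Cables2). Cdkn1c, the gene of p57 and the remaining Cip/Kip inhibitor, was 6.14 and 6.34 in TS2, against 6.24 and 6.20 in TS1 (difference 0.02, limma adjusted p = 0.941). Over the 153 genes of all these lists together, 22 were called, 11 in each direction, which is 14.4% against 13.5% of all genes.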

How the data were processed

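Total RNA of TS2 and TS1 cells was hybridised to Affymetrix mouse gene arrays, 2 per line. Per the submitters' processing notes, the authors used Affymetrix Expression Console and RMA, versions not stated. The deposited table holds linear intensities (5.98 to 23157), although log2 values had been assumed when the tests were planned, and log2 was taken here. RMA removes shifts shared by most genes of an array. Signal over background was judged only against receptor probe sets, and scan batches are not analysed here.

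The platform's annotation gave 21789 of 35556 probe sets a single symbol, 1621 more than 1 and 12146 no symbol. Through Entrez numbers 21698 matched RefSeq's gene table of GRCm38.p6, which left 19938 genes. The linear model used limma 3.58.1 in R 4.3.3 (2 residual and 3.026 prior degrees of freedom). Its code was run on data simulated from the fitted prior variance, which checks the code and not the calls given here. The labels call the duplicates biological; if they share a culture, p-values measure technical spread only. Members, lists and rules were chosen with earlier results of these data known. Named genes are the members, up to 4 called, non-overlapping genes per list by size of difference, a preset group of regulators, and called markers; the rule for genes with similar patterns required a called member with a difference of at least 1, and 0 met it. Alternatives were blocks by duplicate letter, leaving out single arrays, other prior variances, other scalings, a filter on dim probe sets, the mean of a gene's probe sets and unmoderated variances.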

Additional observations from a re-analysis of the deposited data

How the results depend on the processing

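The difference of Cdkn2c was 0.62 in the main model (adjusted p = 0.0275). It was 0.62 with the replicate block (adjusted p = 0.0712) and without moderated variances (adjusted p = 0.207), where the call was lost, and 0.53 to 0.70 with single arrays left out. The number of members called, 1 in the main model, was then 0, as it was with single arrays left out, except without TS1 A and without TS1 B, where it was 1 and the called gene was Rb1 (0.64 to 1.49). Cdkn2c kept its call under the other prior variances, scalings, filter and probe set mean (adjusted p 0.0163 to 0.0287). Genes called numbered 2691, and 979 to 2198 with single arrays left out, with 420 to 861 higher in TS2 and 559 to 1337 higher in TS1. With the replicate block 1666 were called, 664 and 1002 by direction. Over the pathway lists 22 genes were called, 10 with the replicate block and 5 to 18 with single arrays left out. Without moderated variances limma's linear model called 0 genes, 0 members and 0 pathway genes, with 4156, 1 and 40 at an unadjusted p under 0.05. Labels give A and B no shared source, and A minus B correlated at -0.03 between the lines across genes. No called difference of a gene named by rule, nor of Mybl2, added after the data were seen, changed sign under these alternatives. Of the 45 other named genes under 12 alternatives, 105 of 533 values lost a call and 1 gained one. The 533 include values of preset genes not called in the main model, which had no call to lose. With an array left out fewer degrees of freedom remain.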
